A study of Arabidopsis thaliana with 9 samples.

Results

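Transcripts were measured in root tips of Arabidopsis thaliana seedlings of 3 genotypes by RNA sequencing, and 57 genes had lower levels in both mutants, seu-3 and wox5-1, than in the wild type, Col-0. The 57 were taken by a rule from the deposited values, which are FPKM (fragments scaled by transcript length and library depth). A gene needed an average of 5 FPKM or more across all 9 libraries, and a difference of mean log2(FPKM + 1) at or below -1 in seu-3 minus Col-0 and also in wox5-1 minus Col-0. Of 33560 listed genes, 12057 reached the mean of 5 FPKM, and the 57 were 0.473% of these. The genes were thus chosen by their differences from Col-0, which are given as a description and support nothing. Both also rest on the same Col-0 libraries. The difference between the 2 mutants and the spread within a genotype had no threshold in the rule.

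The seu-3 libraries came from a mutant of SEU (SEUSS), a transcriptional co-regulator that works with LEUNIG-type corepressors. The wox5-1 libraries came from a mutant of WOX5, a homeobox transcription factor of the quiescent centre, the slowly dividing cells that keep the root stem cells around them. Col-0 carried neither mutation. All plants were 5 days old and had been grown upright on sucrose medium, and each genotype had 3 libraries. The labels state neither the zygosity nor the parental background of either allele, nor whether the libraries of a genotype came from separate sowings, so that a p-value measures only the spread between these libraries. The tissue is given once as 1 mm and once as 3 mm of root end, and that difference could not be settled. Because whole root ends were used, fewer cells of a type and less transcript per cell cannot be told apart.

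Several of the 57 genes work in well-known systems of the root. A root takes up iron after reducing it: the ferric reductase FRO2 turns ferric into ferrous iron at the root surface, and IRT1 carries the ferrous iron into the epidermis. Nitrogen enters through nitrate carriers of the NRT families and ammonium carriers of the AMT family, and ammonium is then bound to glutamate by glutamine synthetase. Other members belong to families that make defence proteins and specialised metabolites, among them cytochromes P450, Kunitz-type protease inhibitors, defensins and major latex proteins.

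Each library summed to 794809 to 839181 FPKM. A step worth 1 fragment, read off low FPKM multiplied by transcript length, gave an approximate depth of 7.27 to 12.9 M mapped fragments. WOX5 was listed at 0 in all 3 wox5-1 libraries, but it was also low elsewhere, at 0.0884, 0 and 0 FPKM in seu-3 and 0.301, 0.461 and 0.524 FPKM in Col-0. SEU averaged 4.71 ± 0.513 FPKM in seu-3, 13.2 ± 0.156 FPKM in wox5-1 and 15.1 ± 3.14 FPKM in Col-0 (SD, n = 3 each). The root tip regulator SCR averaged 17.1 ± 5.26 FPKM in seu-3, 29.7 ± 1.69 FPKM in wox5-1 and 25.1 ± 2.55 FPKM in Col-0. The root cap factor BRN1 averaged 52.2 ± 2.22 FPKM in seu-3, 19.8 ± 2.16 FPKM in wox5-1 and 39.9 ± 9.35 FPKM in Col-0. Another root cap factor, SMB, averaged 4.59 FPKM in seu-3, 6.18 FPKM in wox5-1 and 10.3 FPKM in Col-0. Its mean was thus lower in seu-3 than in Col-0, whereas that of BRN1 was higher. SHR averaged 2.68 FPKM in seu-3, 14.1 FPKM in wox5-1 and 7.96 FPKM in Col-0. PLT1 averaged 0.299 FPKM in seu-3, 2.33 FPKM in wox5-1 and 0.849 FPKM in Col-0. PLT2 averaged 0.381 FPKM in seu-3, 1.64 FPKM in wox5-1 and 1.295 FPKM in Col-0. Transcripts of the ground tissue and of the root cap were present in every genotype, at differing levels. Zones of the root differed in their transcripts between the genotypes. Of 14 tested columella and root cap genes, 3 higher and 3 lower were called in seu-3 relative to Col-0, against 1 higher and 11 lower in wox5-1. Their summed level was 923, 729 and 875 in seu-3, 280.2, 378 and 327 in wox5-1 and 624, 602 and 616 in Col-0 (FPKM). Of 20 mitosis genes, limma called 0 higher (0 at an unadjusted p below 0.05) and 17 lower in seu-3, and 11 higher and 0 lower (0 at an unadjusted p below 0.05) in wox5-1. These calls are from limma at an adjusted p below 0.05, by which 34.2% of all 17062 tested genes were lower and 6.66% higher in seu-3 than in Col-0, and 13.5% were lower and 13.7% higher in wox5-1. The mitosis genes summed to 66.9, 74.0 and 31.1 in seu-3, 281, 215 and 226 in wox5-1 and 124, 126 and 161 in Col-0 (FPKM). By the same test 0 of 7 suberin genes were higher and 3 lower in seu-3, and 0 higher and 4 lower in wox5-1. Of 13 xylem and secondary wall genes 0 were higher (1 at an unadjusted p below 0.05) and 1 lower in seu-3, and 0 higher and 3 lower in wox5-1. Of 21 root hair genes 3 were higher and 2 lower in seu-3, and 0 higher and 7 lower in wox5-1. No gene of these lists is among the 57, and the part of such zones in the levels of the 57 was not tested. Lists of photosynthesis and pollen genes, checks for shoot or pollen material, were highest in replicate 3 among the wox5-1 libraries. The photosynthesis genes summed to 219, 214 and 188 in seu-3, 111, 135 and 217 in wox5-1 and 159, 205 and 221 in Col-0 (FPKM). The pollen genes summed to 75.7, 73.7 and 87.5 in seu-3, 46.0, 48.2 and 146 in wox5-1 and 70.0, 65.0 and 57.1 in Col-0 (FPKM). The part of such material was not tested either.

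The 57 genes are the overlap of the genes low in seu-3 with the genes low in wox5-1. In seu-3 1096 genes (9.09% of the 12057) lay at or below -1, of which the 57 are 5.20%. In wox5-1 369 genes (3.06%) did, of which they are 15.4%. The median difference of the 57 was -1.69 in seu-3 (from -3.61 to -1.01) and -1.32 in wox5-1 (from -3.64 to -1.01), beside medians of -0.24 and 0.05 for all tested genes. Relative to those medians the 57 lay at -1.45 in seu-3 and -1.37 in wox5-1. Together the 57 held 0.0950% ± 0.0161 of the summed FPKM in seu-3, 0.118% ± 0.0327 in wox5-1 and 0.345% ± 0.0798 in Col-0 (SD, n = 3 each). By limma 51 of the 57 were lower in seu-3, where 34.2% of all tested genes were, and 41 were lower in wox5-1, where 13.5% were. Of all tested genes 40.8% were called in either direction in seu-3 and 27.3% in wox5-1. The same 41 were lower in both (2.77% of all tested genes), and 6 were called in neither. Every seu-3 library lay below every Col-0 library for 51 of the 57 (43.9% of the 12057 genes), every wox5-1 library did for 38 (21.7%), and both held for 37 (5.5%). Since the rule used these contrasts, nothing is read from these counts.

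**Figure D1:**
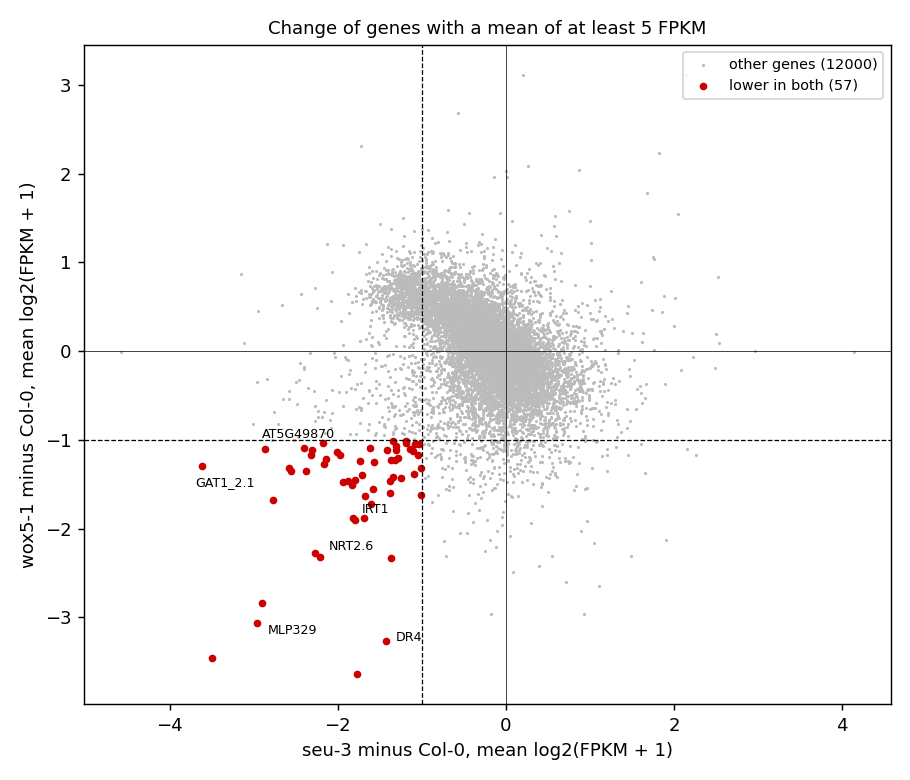
Difference of mean log2(FPKM + 1) in seu-3 minus Col-0 (x axis) and wox5-1 minus Col-0 (y axis) for the 12057 genes averaging 5 FPKM or more; dashed lines mark the rule's threshold of -1. The 57 genes (red) fill the lower left corner, mostly between -1 and -2 in wox5-1, with MLP329 near the lower end in both mutants and DR4 and GAT1_2.1 far from the diagonal.

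Of the iron uptake system the rule kept 2 genes, IRT1 and FRO2. IRT1 (AT4G19690, chr4:10707344-10709015 in TAIR10.1), the main iron importer of the root, had 20.8, 9.21 and 17.3 FPKM in seu-3, 19.2, 5.44 and 26.3 FPKM in wox5-1 and 39.7, 49.2 and 86.9 FPKM in Col-0. All 6 mutant libraries were below the lowest Col-0 library, but the mutant values themselves ranged widely, with wox5-1 replicate 2 lowest. FRO2 (AT1G01580), the ferric reductase, had 6.48, 3.55 and 5.86 FPKM in seu-3, 3.74, 3.05 and 6.71 FPKM in wox5-1 and 12.1, 13.2 and 21.2 FPKM in Col-0. Again no mutant library reached Col-0. On the log2 scale the difference from Col-0 was -1.82 in seu-3 and -1.89 in wox5-1 for IRT1 and -1.38 in seu-3 and -1.60 in wox5-1 for FRO2. Between the mutants neither differed by the test: seu-3 minus wox5-1 was 0.07 (SE 0.52, adjusted p = 0.918) for IRT1 and 0.22 (SE 0.29, adjusted p = 0.526) for FRO2.

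Of the 17 tested genes of the iron acquisition list, these 2 included, limma called 0 higher (0 at an unadjusted p below 0.05) and 7 lower in seu-3 (6.66% of all tested genes were higher and 34.2% lower), and 1 higher and 10 lower in wox5-1 (13.7% of all higher, 13.5% lower). FIT, listed as FRU (AT2G28160), the transcription factor that switches on IRT1 and FRO2, had 115, 101 and 95.1 FPKM in seu-3, 39.8, 57.1 and 52.1 FPKM in wox5-1 and 108, 99.6 and 97.8 FPKM in Col-0. The seu-3 and Col-0 libraries overlapped and wox5-1 lay below both, and the change in seu-3 was 0.02 (adjusted p = 0.914), against -1.04 (adjusted p = 0.00191) in wox5-1. FRO3 (AT1G23020), a ferric reductase of the mitochondrion, had 59.9, 53.3 and 64.4 FPKM in seu-3, 17.1, 17.39 and 19.3 FPKM in wox5-1 and 49.9, 50.4 and 54.4 FPKM in Col-0. Its wox5-1 libraries lay far below the others, seu-3 and Col-0 overlapped, and the difference between the mutants was past the threshold, at 1.67 (adjusted p = 1.85e-05) for seu-3 minus wox5-1. NAS4 (AT1G56430), one of the enzymes that make the metal chelator nicotianamine, was called lower in both mutants, at -1.75 (adjusted p = 0.000998) in seu-3 and -1.12 (adjusted p = 0.00495) in wox5-1, with a mean below the 5 FPKM of the rule. PYE (AT3G47640), a regulator of the iron deficiency response, was the gene called higher in wox5-1, at 0.64 (adjusted p = 0.0239).

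Among the 57 were 6 genes that carry or bind nitrogen or respond to it, a grouping made after their values were seen. GSR2 (AT1G66200, chr1:24655115-24657703), a cytosolic glutamine synthetase and the member with the highest level, had 186, 174 and 135 FPKM in seu-3, 208, 214 and 198 FPKM in wox5-1 and 523, 609.8 and 576 FPKM in Col-0. Its libraries were close together in every genotype, and the mutant levels lay far below Col-0. AMT1;2 (AT1G64780), an ammonium transporter of the root, had 2.63, 1.48 and 1.36 FPKM in seu-3, 5.48, 4.90 and 3.62 FPKM in wox5-1 and 9.65, 15.1 and 16.3 FPKM in Col-0. Every seu-3 library was below every wox5-1 library, and all of those were below Col-0. NRT2.6 (AT3G45060), of the high-affinity nitrate transporter family, had 1.58, 2.33 and 2.04 FPKM in seu-3, 1.35, 1.60 and 2.37 FPKM in wox5-1 and 5.097, 15.9 and 24.1 FPKM in Col-0. Both mutants stayed below the lowest Col-0 library, while Col-0 itself spread widely.

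GAT1_2.1 (AT1G15040), a glutamine amidotransferase-like protein, had 9.56, 7.40 and 7.52 FPKM in seu-3, 35.7, 112 and 21.6 FPKM in wox5-1 and 40.6, 150.1 and 218 FPKM in Col-0. It was low in every seu-3 library, but wox5-1 replicate 2 lay above Col-0 replicate 1, so that wox5-1 and Col-0 overlapped. PTR3 (AT5G46050), a peptide transporter, had 2.83, 3.84 and 1.76 FPKM in seu-3, 1.53, 2.66 and 2.66 FPKM in wox5-1 and 12.2, 11.3 and 9.49 FPKM in Col-0. Its 3 genotypes had narrow ranges and no mutant library reached Col-0. BT2 (AT3G48360), a BTB and TAZ domain protein known to respond to nitrate and sugar, had 12.9, 8.50 and 8.13 FPKM in seu-3, 15.6, 52.1 and 6.25 FPKM in wox5-1 and 19.9, 62.0 and 54.8 FPKM in Col-0. As for GAT1_2.1, wox5-1 replicate 2 was far above the other wox5-1 libraries and within the range of Col-0. The log2 difference from Col-0 was -1.79 in seu-3 and -1.46 in wox5-1 for GSR2, -2.37 in seu-3 and -1.36 in wox5-1 for AMT1;2, -2.21 in seu-3 and -2.32 in wox5-1 for NRT2.6, -3.61 in seu-3 and -1.29 in wox5-1 for GAT1_2.1, -1.69 in seu-3 and -1.89 in wox5-1 for PTR3 and -1.98 in seu-3 and -1.17 in wox5-1 for BT2.

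The wider nitrate list held genes that were higher in seu-3 but not in wox5-1. Of 18 tested nitrate transport and assimilation genes, NRT2.6 included, limma called 5 higher and 9 lower in seu-3 (6.66% of all tested genes were higher and 34.2% lower), and 0 higher (0 at an unadjusted p below 0.05) and 11 lower in wox5-1 (13.7% of all higher, 13.5% lower). NIA1 (AT1G77760) and NIA2 (AT1G37130), the nitrate reductases, and NIR1 (AT2G15620), the nitrite reductase, were called higher in seu-3, at 1.39 (adjusted p = 0.00219), 0.93 (adjusted p = 0.00521) and 0.57 (adjusted p = 0.0125). In wox5-1 NIR1 was lower, at -0.64 (adjusted p = 0.015), and NIA1 and NIA2 were not called. All 3 differed between the mutants, with seu-3 minus wox5-1 at 1.16 (adjusted p = 0.000546), 0.86 (adjusted p = 0.00206) and 1.21 (adjusted p = 0.000146). NRT1.5 (AT1G32450), which loads nitrate into the xylem, was called lower in both mutants but had a mean below 5 FPKM, with 0.838, 0.484 and 0.347 FPKM in seu-3, 1.82, 2.92 and 3.25 FPKM in wox5-1 and 3.37, 7.94 and 13.8 FPKM in Col-0.

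**Figure D2:**
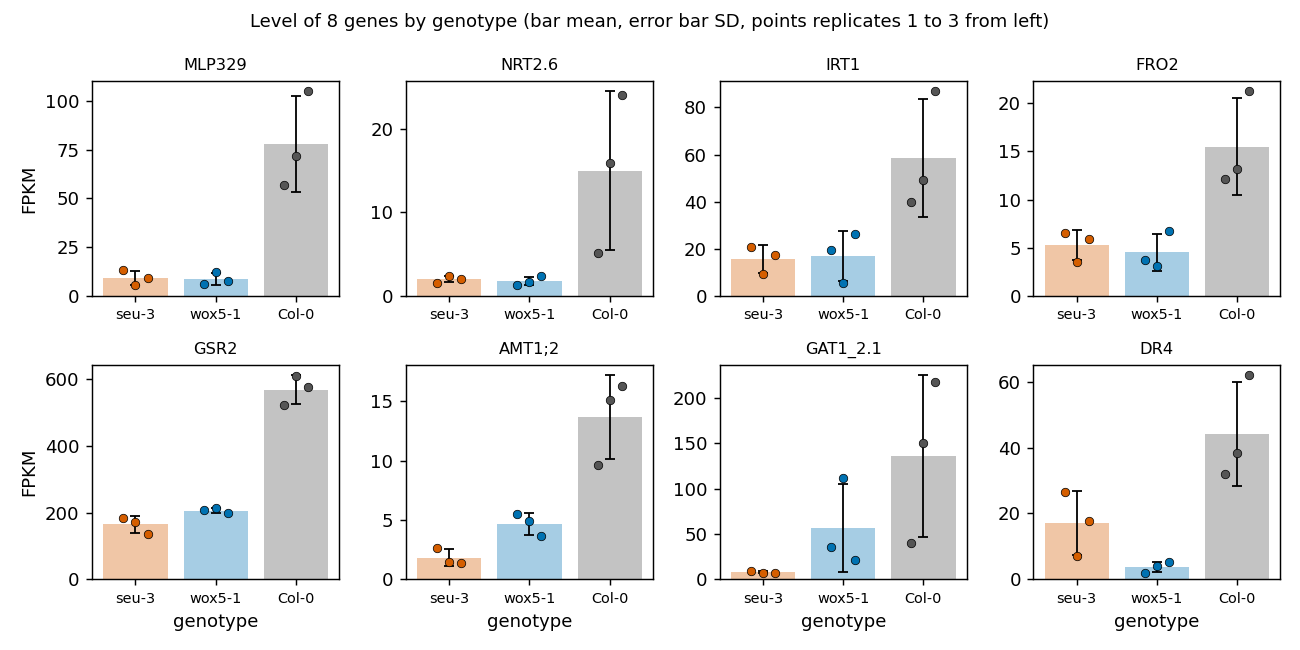
FPKM of 8 of the 57 genes by genotype; bars show means, error bars SD over 3 libraries and points the libraries in replicate order. In all but GAT1_2.1, every mutant library lies below every Col-0 library; for GAT1_2.1 wox5-1 replicate 2 lies above Col-0 replicate 1, and for DR4 the wox5-1 libraries lie below the seu-3 libraries.

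Proteins of families linked with defence formed another set, again grouped after their values were seen. MLP329 (AT2G01530, chr2:239669-240687), a major latex protein, had 13.1, 5.69 and 9.06 FPKM in seu-3, 5.94, 11.98 and 7.36 FPKM in wox5-1 and 56.8, 71.6 and 105 FPKM in Col-0, a mean of 9.27 ± 3.69 FPKM in seu-3, 8.43 ± 3.16 FPKM in wox5-1 and 77.8 ± 24.7 FPKM in Col-0 (SD, n = 3 each). The groups were far apart, and the highest mutant library was well below the lowest Col-0 library. AT3G59930, a defensin-like protein, had 9.90, 6.05 and 5.42 FPKM in seu-3, 7.29, 7.19 and 7.34 FPKM in wox5-1 and 43.3, 59.98 and 75.1 FPKM in Col-0. Its wox5-1 libraries were nearly equal, and no mutant library came near Col-0. AT4G23670, a second protein of the MLP fold, had 19.1, 6.01 and 21.4 FPKM in seu-3, 5.57, 7.36 and 6.81 FPKM in wox5-1 and 29.2, 33.4 and 51.4 FPKM in Col-0. The seu-3 libraries were split, with replicate 2 near wox5-1 and the others above it. Among 28 tested genes with this fold by their annotated product, 2 were called higher and 12 lower in seu-3 (6.66% of all tested genes were higher and 34.2% lower), and 1 higher and 14 lower in wox5-1 (13.7% of all higher, 13.5% lower). MLP43 (AT1G70890), MLP328 (AT2G01520) and AT3G26460 were called lower in both mutants but had means below 5 FPKM, and MLP165 (AT1G35260) was called lower in both with changes of -0.57 (adjusted p = 0.0464) and -0.79 (adjusted p = 0.0231).

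DR4 (AT1G73330, chr1:27568714-27569823), annotated as drought-repressed 4 and of the Kunitz inhibitor type, had 26.6, 7.25 and 17.61 FPKM in seu-3, 2.003, 3.94 and 5.16 FPKM in wox5-1 and 31.8, 38.4 and 62.0 FPKM in Col-0. The seu-3 libraries were intermediate, wox5-1 lowest and Col-0 highest, without overlap between any 2 genotypes. KTI1 (AT1G73260), a Kunitz trypsin inhibitor 20431 bases away from DR4 on chromosome 1, had 24.4, 6.44 and 15.3 FPKM in seu-3, 6.40, 21.2 and 4.37 FPKM in wox5-1 and 17.7, 23.2 and 55.4 FPKM in Col-0. Its values overlapped among all 3 genotypes, and only its means passed the rule. NSP3 (AT3G16390), which directs the breakdown of glucosinolates to nitriles, had 17.7, 16.7 and 15.2 FPKM in seu-3, 24.0, 30.6 and 40.2 FPKM in wox5-1 and 75.02, 76.2 and 58.5 FPKM in Col-0. It was lowest in seu-3, intermediate in wox5-1 and highest in Col-0, with no overlap; NSP1, whose transcript is 90.11% identical over 92.9% of NSP3, could share fragments with it. AT5G49870, a mannose-binding lectin of the jacalin type, had 1.16, 1.14 and 0.691 FPKM in seu-3, 4.62, 6.16 and 6.52 FPKM in wox5-1 and 13.4, 13.1 and 13.9 FPKM in Col-0. Here too the 3 genotypes were fully apart, and its Col-0 values were almost equal.

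Enzymes of specialised metabolism were also among the 57. CYP72A14 (AT3G14680), a cytochrome P450, had 1.55, 1.18 and 1.26 FPKM in seu-3, 4.40, 5.37 and 4.53 FPKM in wox5-1 and 8.40, 12.7 and 13.2 FPKM in Col-0. CYP71B2 (AT1G13080) had 5.14, 2.42 and 5.33 FPKM in seu-3, 3.46, 10.2 and 4.24 FPKM in wox5-1 and 11.6, 16.2 and 26.9 FPKM in Col-0, and CYP71B29 (AT1G13100), which lies 2862 bases from CYP71B2 with 1 gene between them, had 6.16, 6.5 and 4.39 FPKM in seu-3, 3.78, 7.81 and 4.86 FPKM in wox5-1 and 12.2, 18.6 and 18.8 FPKM in Col-0. CYP72A14 separated seu-3 from wox5-1, whereas the other 2 had mutant values that overlapped with each other and stayed below Col-0. Of 95 tested P450 genes 11 were called higher and 36 lower in seu-3 (6.66% of all tested genes were higher and 34.2% lower), and 2 higher and 41 lower in wox5-1 (13.7% of all higher, 13.5% lower). AT3G27950, a GDSL-type lipase, had 3.61, 2.16 and 2.64 FPKM in seu-3, 10.05, 3.54 and 6.25 FPKM in wox5-1 and 14.3, 15.6 and 16.8 FPKM in Col-0, and AT1G30720, an FAD-binding enzyme of the berberine type, had 6.32, 5.66 and 4.74 FPKM in seu-3, 7.57, 11 and 4.08 FPKM in wox5-1 and 8.23, 19.8 and 26.7 FPKM in Col-0. For AT1G30720 wox5-1 replicate 2 exceeded Col-0 replicate 1, while AT3G27950 did not overlap with Col-0 in either mutant. AT2G38380, a class III peroxidase, had 6.48, 3.54 and 3.39 FPKM in seu-3, 8.87, 13.5 and 9.03 FPKM in wox5-1 and 29.8, 35.02 and 41.5 FPKM in Col-0. Its seu-3 libraries lay below all wox5-1 libraries, and these below Col-0.

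The promoters of 3 of these enzyme genes are shown because they hold the most copies of TTGAC, the core of the W-box bound by WRKY factors, among the 57. Each is the 250 bases before the annotated start, 5′ to 3′ on the strand of the gene, with TTGAC and its reverse complement GTCAA in capitals, read from the TAIR10.1 genome of RefSeq with its own annotation. AT1G30720 (chr1:10897675-10897924, plus strand) and CYP72A14 (chr3:4934080-4934329, plus strand) have 4 copies, and AT3G27950 (chr3:10377707-10377956, plus strand) has 3; no other annotated gene overlaps these windows.
AT1G30720: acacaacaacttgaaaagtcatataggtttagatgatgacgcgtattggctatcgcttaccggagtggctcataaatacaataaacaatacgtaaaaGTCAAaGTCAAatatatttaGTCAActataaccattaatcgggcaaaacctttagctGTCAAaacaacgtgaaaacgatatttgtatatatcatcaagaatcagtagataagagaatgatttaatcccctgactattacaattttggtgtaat
CYP72A14: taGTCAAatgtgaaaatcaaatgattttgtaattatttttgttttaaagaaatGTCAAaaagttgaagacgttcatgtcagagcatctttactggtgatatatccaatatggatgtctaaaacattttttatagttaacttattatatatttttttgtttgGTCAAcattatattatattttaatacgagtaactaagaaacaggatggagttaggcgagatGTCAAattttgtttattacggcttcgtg
AT3G27950: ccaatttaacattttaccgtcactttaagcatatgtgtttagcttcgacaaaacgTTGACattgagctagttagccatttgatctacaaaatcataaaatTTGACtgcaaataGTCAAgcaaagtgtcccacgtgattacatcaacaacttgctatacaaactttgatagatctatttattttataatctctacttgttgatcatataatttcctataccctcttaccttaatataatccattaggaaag

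TTGAC on either strand, within 250 bases before to 50 bases after the start, was present in 41 of the 57 promoters (71.9%), beside 52.0% of 12011 annotated genes averaging 5 FPKM or more and 49.5% of all 37897 promoters. CACGTG, the G-box, was in 6 of the 57 (10.53%, against 8.78% of the 12011 and 6.46% of all). GNATATNC, the site of phosphate starvation regulators, was in 6 (10.53%, against 6.22% and 6.13%), and TTAATGG, a site of WUSCHEL-type homeobox factors, in 4 (7.02%, against 8.84% and 7.25%). The 4 motifs do not contain each other. These matches describe the letters of the windows, not binding. None of the 46 tested WRKY genes is among the 57; 6 were called higher and 12 lower in seu-3 (6.66% of all tested genes were higher and 34.2% lower), and 2 higher and 21 lower in wox5-1 (13.7% of all higher, 13.5% lower).

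Sugar, inositol and signalling genes made up a further set. SWEET16 (AT3G16690), a sugar transporter of the vacuolar membrane, had 9.0, 8.10 and 9.17 FPKM in seu-3, 7.16, 10.7 and 9.46 FPKM in wox5-1 and 23.7, 23.7 and 39.9 FPKM in Col-0. No mutant library overlapped with Col-0, and the ranges of the 2 mutants overlapped. MIOX2 (AT2G19800), which oxidises myo-inositol to glucuronic acid, had 29.5, 32.7 and 24.8 FPKM in seu-3, 21.4, 53.4 and 22.9 FPKM in wox5-1 and 38.4, 116 and 186 FPKM in Col-0. Its wox5-1 replicate 2 exceeded Col-0 replicate 1. TCH3 (AT2G41100), a calmodulin-like protein first known for its response to touch, had 17.2, 8.90 and 8.88 FPKM in seu-3, 10.8, 12.9 and 7.60 FPKM in wox5-1 and 21.0, 67.1 and 48.6 FPKM in Col-0; in this case every mutant library was below every Col-0 library. Of 16 tested touch and early stress genes, TCH3 included, limma called 2 higher and 5 lower in seu-3 (6.66% of all tested genes were higher and 34.2% lower), and 0 higher (0 at an unadjusted p below 0.05) and 7 lower in wox5-1 (13.7% of all higher, 13.5% lower). GRXS13 (AT1G03850), a glutaredoxin, had 7.72, 5.42 and 6.32 FPKM in seu-3, 6.43, 18.7 and 6.36 FPKM in wox5-1 and 11.3, 30.9 and 58.3 FPKM in Col-0. SNRK2.7 (AT4G40010), a protein kinase of the family that acts in osmotic and abscisic acid signalling, had 5.45, 5.75 and 7.72 FPKM in seu-3, 3.62, 9.11 and 6.85 FPKM in wox5-1 and 12.4, 12.8 and 19.3 FPKM in Col-0. The kinase was separated from Col-0 in both mutants, and the glutaredoxin in seu-3 only. Of 14 tested osmotic and abscisic acid genes, DR4 included, limma called 5 higher and 2 lower in seu-3 (6.66% of all tested genes were higher and 34.2% lower), and 0 higher (1 at an unadjusted p below 0.05) and 5 lower in wox5-1 (13.7% of all higher, 13.5% lower).

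Growth and wall proteins included RTFL16 (AT3G25717) and RTFL17 (AT1G13245), small peptides of the ROTUNDIFOLIA-like family which limit cell proliferation when overproduced. RTFL17 had 3.86, 5.74 and 3.33 FPKM in seu-3, 4.43, 5.98 and 3.56 FPKM in wox5-1 and 12.7, 14.3 and 9.59 FPKM in Col-0, and RTFL16 had 7.67, 4.31 and 4.93 FPKM in seu-3, 5.55, 8.24 and 5.18 FPKM in wox5-1 and 9.10, 20.7 and 13.8 FPKM in Col-0. Neither overlapped with Col-0 in any mutant library, though RTFL16 came close. PELPK1 (AT5G09530), a proline-rich wall protein, had 3.58, 0.551 and 0.815 FPKM in seu-3, 1.60, 2.595 and 7.68 FPKM in wox5-1 and 8.64, 5.38 and 17.8 FPKM in Col-0, with a wox5-1 library above a Col-0 library. AT4G11190, a dirigent-like protein, had 40.2, 29.0 and 34.0 FPKM in seu-3, 45.5, 47.8 and 35.8 FPKM in wox5-1 and 84.7, 103 and 127 FPKM in Col-0, and AT3G25930, of a nucleotide hydrolase-like family, had 101, 86.1 and 86.5 FPKM in seu-3, 79.4, 112 and 98.8 FPKM in wox5-1 and 203, 260.0 and 209.7 FPKM in Col-0. Both of these abundant members were lower in every mutant library than in every Col-0 library, and the ranges of the 2 mutants overlapped. AT5G43520, with a cysteine and histidine-rich C1 domain, had 55.6, 37.0 and 29.2 FPKM in seu-3, 43.1, 88.3 and 44.5 FPKM in wox5-1 and 85.7, 159 and 170.4 FPKM in Col-0, and AT1G52200, of the PLAC8 family, 26.7, 20.2 and 15.4 FPKM in seu-3, 18.04, 27.0 and 13.01 FPKM in wox5-1 and 36.4, 69.1 and 102 FPKM in Col-0. In AT5G43520 a single wox5-1 library passed the lowest Col-0 library.

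The remaining members are described by their annotation only. AT2G37750, which is uncharacterised, had 16.7, 7.10 and 13.4 FPKM in seu-3, 14.7, 18.5 and 15 FPKM in wox5-1 and 32.1, 43.6 and 68.2 FPKM in Col-0. AT2G43535, a knottin-type small protein, had 29.3, 25.1 and 23.5 FPKM in seu-3, 28.03, 30.4 and 29.7 FPKM in wox5-1 and 49.6, 64.6 and 68.0 FPKM in Col-0. AT1G80380, annotated to the superfamily of P-loop nucleoside triphosphate hydrolases, had 9.56, 8.08 and 8.89 FPKM in seu-3, 20.5, 38.4 and 11.1 FPKM in wox5-1 and 19.7, 60.2 and 90.6 FPKM in Col-0. The first 2 were lower in every mutant library than in every Col-0 library, and AT1G80380 was so in seu-3 only, since 2 wox5-1 libraries exceeded Col-0 replicate 1. AT3G22800, with leucine-rich repeats, differed from Col-0 by -1.14 in seu-3 and -1.098 in wox5-1 on the log2 scale, AT4G24340, a phosphorylase-like protein, by -1.37 in seu-3 and -1.22 in wox5-1, AT5G07080, an acyltransferase-like protein, by -1.62 in seu-3 and -1.09 in wox5-1, and AT3G46690, a glycosyltransferase, by -1.03 in seu-3 and -1.04 in wox5-1. AT5G51310, an oxygenase, differed by -1.05 in seu-3 and -1.17 in wox5-1, AT1G14185, an oxidoreductase, by -1.09 in seu-3 and -1.38 in wox5-1, AT1G07175, annotated as an alternative NAD(P)H dehydrogenase, by -1.31 in seu-3 and -1.12 in wox5-1, and AT2G36950, of a heavy metal transport family, by -1.34 in seu-3 and -1.01 in wox5-1. AT3G26470, with an RPW8 domain, differed by -1.31 in seu-3 and -1.07 in wox5-1, and AT1G14160 by -1.25 in seu-3 and -1.43 in wox5-1. The uncharacterised AT2G22122, AT3G21710 and AT1G80180 differed by -1.71 in seu-3 and -1.40 in wox5-1, by -1.08 in seu-3 and -1.05 in wox5-1, and by -1.01 in seu-3 and -1.32 in wox5-1. Of these 13, AT5G07080 and AT3G46690 overlapped with Col-0 in wox5-1 and AT1G80180 in seu-3, and the mutant libraries of the others lay below every Col-0 library.

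**Figure D3:**
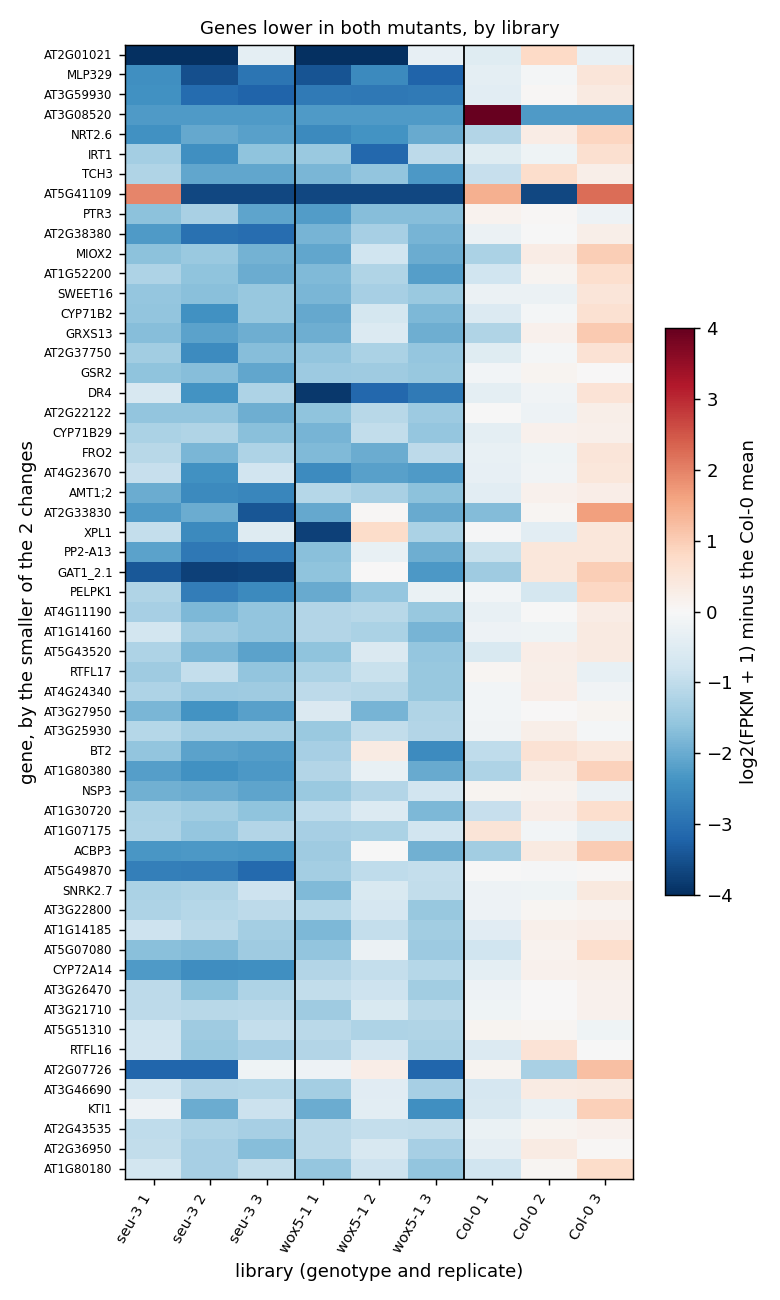
Each of the 57 genes (rows, ordered by the smaller of the 2 changes from Col-0, largest at the top) in the 9 libraries (columns, replicates 1 to 3 of seu-3, wox5-1 and Col-0), as log2(FPKM + 1) minus the Col-0 mean of the gene, with colours cut at -4 and 4. Most rows are blue throughout seu-3; wox5-1 replicate 2 is paler than the other wox5-1 libraries in the middle rows, and Col-0 replicate 1 is bluer than Col-0 replicate 3.

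A few of the 57 rest on values listed at 0, which can be failed estimates. Of the 57, 5 had at least 1 library at 0, beside 0.257% of the 12057 genes. AT3G08520, a ribosomal protein L41 gene, was at 112 FPKM in Col-0 replicate 1 and was listed at 0 in the other 8 libraries, so that 1 library decides its place. AT2G01021 had 0, 0 and 24.0 FPKM in seu-3, 0, 0 and 25.4 FPKM in wox5-1 and 22.3, 56.3 and 25.6 FPKM in Col-0, and its transcript of 102 bases is identical to that of AT3G06365. AT5G41109 was above 0 in seu-3 replicate 1, at 47.4 FPKM, and in Col-0 replicates 1 and 3, at 32.2 and 57.6 FPKM; its 141 bases are identical to part of AT5G41110, which it overlaps. XPL1 (AT3G18000), an enzyme of phosphocholine synthesis, had 5.98, 1.296 and 8.40 FPKM in seu-3, 0, 21.6 and 4.63 FPKM in wox5-1 and 12.1, 9.05 and 17.5 FPKM in Col-0. AT2G07726, annotated as a pseudogene, had 0, 0 and 6.95 FPKM in seu-3, 6.86, 9.83 and 0 FPKM in wox5-1 and 8.71, 2.68 and 19.6 FPKM in Col-0. For these 5 no order of the genotypes can be read from the means. Without them 52 genes remain. Apart from NSP3, AT2G01021 and AT5G41109, transcripts at least 90% identical over at least 50% of the length were found for AT1G14185 (AT1G14190) and AT4G24340 (AT4G24350), and both copies were below 2 FPKM in every library. A further limit is overlap with another annotated gene, found for 9 of the 57 (15.8%, against 31.7% of the 12057), which are TCH3, AT5G41109, AT1G52200, PP2-A13, GAT1_2.1, AT1G14160, ACBP3, AT3G26470 and AT2G07726.

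The direct comparison of seu-3 with wox5-1 does not use the Col-0 means, although Col-0 libraries enter the estimate of the spread. By limma 1 of the 57 genes was higher and 9 were lower in seu-3 than in wox5-1, while 47 were not called. Of all 17062 tested genes 19.9% were higher (3400), 44.6% lower (7613) and 64.5% called in either direction. A rule that keeps both mutants well below Col-0 leaves less room for a difference between them, so the small share is not read as a property of these genes. With libraries rescaled by median ratios, all tested genes split into 5624 higher and 5360 lower, and the 57 into 2 higher and 6 lower. The median of seu-3 minus wox5-1 was -0.15 over the 57 and -0.27 over all tested genes. In 37 of the 57 the seu-3 mean was the lower one, and in 19 the higher. The same share over all tested genes was not counted, so nothing is read from these counts.

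DR4 was the gene higher in seu-3, by 1.84 (SE 0.43, adjusted p = 0.00442). Of the 9 lower ones GAT1_2.1 had the largest difference, -2.32 (SE 0.65, adjusted p = 0.0112), followed by AT5G49870 at -1.76 (SE 0.15, adjusted p = 6.51e-05) and CYP72A14 at -1.31 (SE 0.17, adjusted p = 0.000191). PP2-A13 (AT3G61060), a phloem lectin-like protein with 3.28, 1.60 and 1.77 FPKM in seu-3, 4.83, 14.2 and 3.83 FPKM in wox5-1 and 9.08, 24.6 and 24.5 FPKM in Col-0, differed by -1.26 (SE 0.47, adjusted p = 0.0386). AT2G38380 differed by -1.09 (SE 0.23, adjusted p = 0.00259), AMT1;2 by -1.02 (SE 0.23, adjusted p = 0.00365), AT3G27950 by -0.93 (SE 0.28, adjusted p = 0.0154) and NSP3 by -0.86 (SE 0.18, adjusted p = 0.00212). GSR2 differed least, by -0.34 (SE 0.12, adjusted p = 0.0351). Every seu-3 library was below every wox5-1 library for 10 of the 57 (46.3% of the 12057 genes), and above for 1 (26%). GSR2, PP2-A13 and AT3G27950 lost the call under some alternatives: with median-ratio scaling the adjusted p was 0.942 for GSR2, 0.0789 for PP2-A13 and 0.0604 for AT3G27950. The other 7 called genes stayed called in the same direction in each alternative tried. For genes not called, a similar level in the mutants is not shown; the SE of NRT2.6, for example, was 0.42 around a difference of 0.11, and that of MIOX2 0.52 around -0.04.

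**Figure D4:**
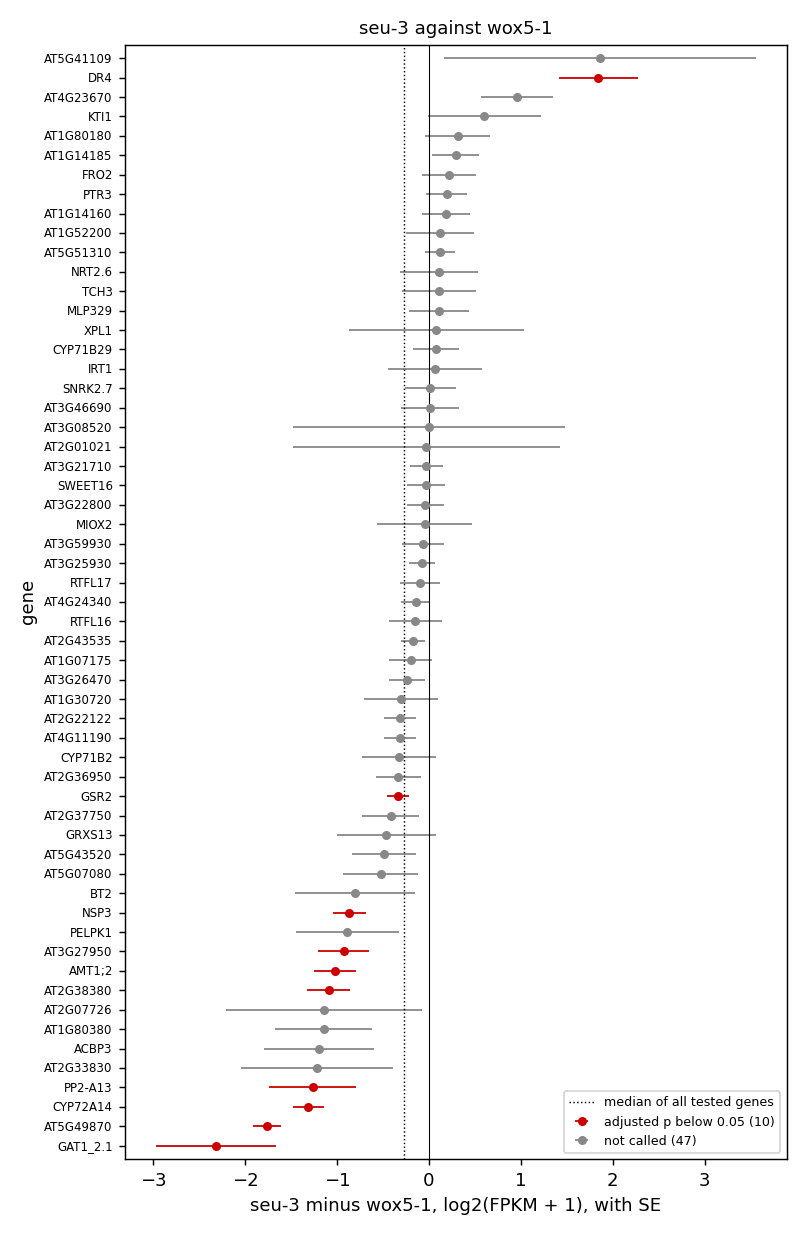
Difference of log2(FPKM + 1) in seu-3 minus wox5-1 for each of the 57 genes, with its SE from limma; red marks the 10 genes with an adjusted p below 0.05 and the dotted line the median of all tested genes, -0.27. DR4 lies at 1.84 and 9 genes lie between -2.32 and -0.34.

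Within a genotype the 57 genes had a wide spread, and many of them shared their high and low libraries. The median SD of log2(FPKM + 1) over the 3 libraries was 0.31 in seu-3, 0.41 in wox5-1 and 0.44 in Col-0 for the 57, beside 0.14, 0.17 and 0.13 for all 12057 genes. The rule set no threshold on this spread, but it read the means of the same libraries and can favour genes whose means are uncertain. Deviations from the genotype mean had medians over the 57 of 0.23, -0.13 and -0.07 in seu-3 replicates 1 to 3, -0.21, 0.31 and -0.12 in wox5-1, and -0.38, 0.07 and 0.36 in Col-0. Over all genes these medians stayed between -0.04 and 0.05. Col-0 replicate 1 was the lowest Col-0 library for 44 of the 57 (77.2%, against 38.2% of the 12057) and replicate 3 the highest for 42 (73.7%, against 40.02%). Among wox5-1 libraries replicate 2 was highest for 39 (68.4%, against 33.5%), and among seu-3 libraries replicate 1 for 40 (70.2%, against 26.2%). The count of 40 includes AT3G08520, which was listed at 0 in every seu-3 library, because a tie was given to replicate 1.

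Some genes moved a long way between replicates. Col-0 replicate 3 was at least 2 times replicate 1 for 21 of the 57 (36.8%, against 1.67% of the 12057), and wox5-1 replicate 2 was at least 2 times the mean of the other wox5-1 libraries for 15 (26.3%, against 0.962%). Both held for 13 genes, which are MIOX2, CYP71B2, GRXS13, AT2G33830, PP2-A13, GAT1_2.1, BT2, AT1G80380, ACBP3, AT5G07080, AT2G07726, AT3G46690 and KTI1. AT2G33830, of the dormancy and auxin associated family, had the largest ratio between these Col-0 libraries, 10.9, with 9.75, 12.1 and 3.85 FPKM in seu-3, 11.5, 52.4 and 11.8 FPKM in wox5-1 and 14.7, 54.2 and 161 FPKM in Col-0. ACBP3 (AT4G24230), an acyl-CoA-binding protein, had 3.48, 3.54 and 3.48 FPKM in seu-3, 7.31, 21.3 and 4.93 FPKM in wox5-1 and 7.55, 27.8 and 44.3 FPKM in Col-0. In both genes wox5-1 replicate 2 stood among the Col-0 libraries. A list of genes known to rise with sugar starvation and darkness was written after these values were seen and is given as a description. Like the 57, the list was highest in wox5-1 replicate 2 and Col-0 replicate 3 and lowest in Col-0 replicate 1. Its 23 tested genes, BT2 and PP2-A13 included, summed to 344, 304 and 309 in seu-3, 676, 1295 and 547 in wox5-1 and 582, 1306 and 1832 in Col-0 (FPKM). Its median deviation was 0.13, -0.07 and -0.15 in seu-3, -0.24, 0.65 and -0.44 in wox5-1 and -0.71, 0.16 and 0.48 in Col-0. By this measure replicate 3 was its lowest seu-3 and wox5-1 library, whereas the 57 were lowest in seu-3 replicate 2 and wox5-1 replicate 1. By limma 0 of its genes were higher (2 at an unadjusted p below 0.05) and 12 lower in seu-3 (6.66% of all higher, 34.2% lower). In wox5-1 1 was higher and 3 were lower (13.7% of all higher, 13.5% lower). The part of any sugar starvation or darkness of the seedlings in the levels of the 57 was not tested. The Casparian strip list, with no member among the 57, also had wox5-1 replicate 2 and Col-0 replicate 3 highest, with sums of 2422, 2279.6 and 1713 in seu-3, 1901, 2848 and 1816 in wox5-1 and 2173, 2956 and 3523 in Col-0 (FPKM). Of its 11 tested genes limma called 0 higher (0 at an unadjusted p below 0.05) and 1 lower in seu-3 (6.66% of all tested genes were higher and 34.2% lower), and 0 higher (0 at an unadjusted p below 0.05) and 2 lower in wox5-1 (13.7% of all higher, 13.5% lower).

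**Figure D5:**
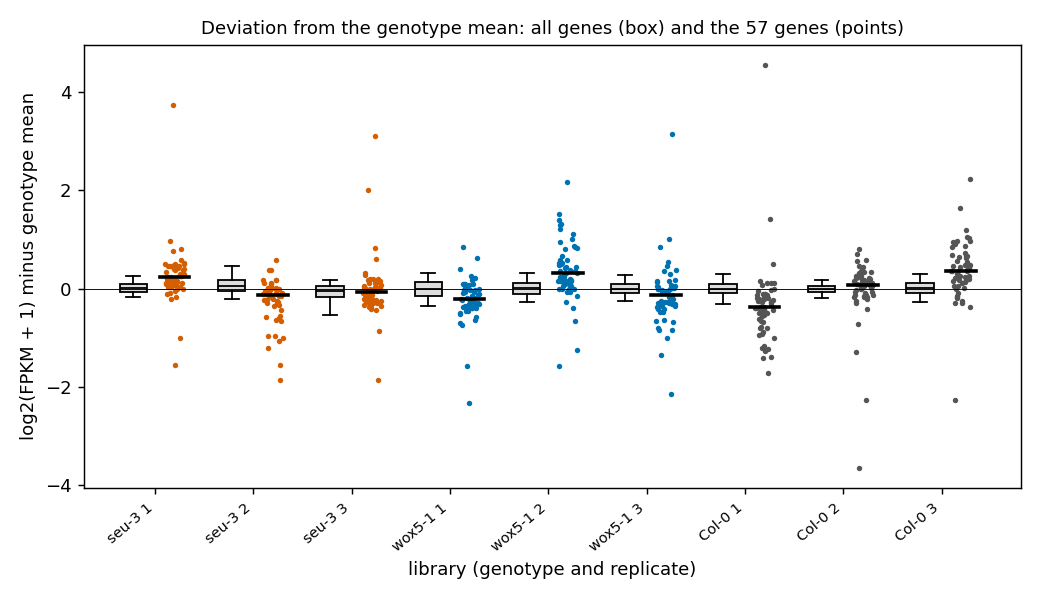
Deviation of log2(FPKM + 1) from the genotype mean in each library for all 12057 genes (grey boxes: quartiles and median, whiskers over the central part of the genes) and for the 57 genes (points, black line at their median). The medians of the 57 are -0.38 in Col-0 replicate 1 and 0.36 in Col-0 replicate 3, while those of all genes stay near 0.

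The list changes with single libraries. Without Col-0 replicate 1 the same rule gave 107 genes, without wox5-1 replicate 2 it gave 91, and without Col-0 replicate 3 it gave 38, of which 34 were among the 57. A core of 22 genes passed in all 9 cases of leaving out a library: MLP329, AT3G59930, GSR2, AMT1;2, IRT1, FRO2, TCH3, SWEET16, MIOX2, RTFL17, CYP71B2, CYP71B29, AT2G38380, AT1G52200, AT1G14160, AT2G22122, AT2G37750, AT3G25930, AT4G11190, AT4G24340, AT5G43520 and AT2G01021. The last of these has 4 libraries at 0. Genes near a threshold came close to the other side. Just inside it in seu-3 were AT1G80180 (-1.01), KTI1 (-1.02) and AT3G46690 (-1.03), and just outside PIRL8 (-0.98), AT2G32150 (-0.96) and AGL17 (-0.95). In wox5-1 AT2G36950 (-1.01), AT2G43535 (-1.01) and AT2G07726 (-1.04) were just inside, and AT5G36130, AT5G66490 and AT3G62040 (-0.998, -0.998 and -0.996) just outside. On mean level PTR3 (5.37 FPKM), PELPK1 (5.40 FPKM) and AT2G36950 (5.83 FPKM) were the lowest kept, and AT4G35160 (4.90 FPKM), AT3G20900 (4.57 FPKM) and LACS3 (4.49 FPKM) the highest left out.

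The 57 genes were spread over the genome, with 17 on chromosome 1, 11 on chromosome 2, 16 on chromosome 3, 6 on chromosome 4 and 7 on chromosome 5. No 2 were adjacent. Besides the P450 pair and the Kunitz pair, AT1G14160 (a protein of family UPF0497) and AT1G14185 (an oxidoreductase) were 8268 bases apart with 2 genes between, and ACBP3 and AT4G24340 38504 bases apart with 13 between. All but 1 of the 57 code for protein. Their proteins had a median of 324.5 residues, against 374 for the 11870 protein-coding genes among the 12057, and 12 of 56 (21.4%) had at most 150 residues, against 10.45%. The smaller ones include AT3G59930, the knottin AT2G43535 and both RTFL peptides. No member belongs to the phosphate, jasmonate, root hair, root cap, suberin, xylem, phloem, mitosis, stem cell niche, hypoxia, heat, photosynthesis, pollen, aquaporin, auxin, cytokinin, triterpene or ethylene lists, or to the C2H2 zinc finger, MYB, bHLH, NAC or AP2/ERF transcription factor families.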

How the data were processed

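RNA was sequenced from root ends of 3 seu-3, 3 wox5-1 and 3 Col-0 samples. The authors deposited FPKM per gene; per the submitters' processing notes Bowtie, Cufflinks and TAIR10 were used, with versions, strandedness and annotation not given in the sources used here. FPKM are not counts, so no count test was run. FPKM multiplied by transcript length fell in steps that gave the rough depths. The 17062 genes averaging 1 FPKM or more were fitted as log2(FPKM + 1) with limma 3.58.1 in R 4.3.3, 1 fit of genotype over 9 libraries with a trend in the variance prior, and Benjamini-Hochberg adjustment over all tested genes; every adjusted p is from this tool. The log2 scale understates changes of low genes. The fit was also run on simulated data with known changes. The simulated libraries varied independently, without the shared high and low libraries seen in these data, and nothing is read from that run. The 57 genes and the 23 gene lists were chosen with earlier results of these data known, and 1 list was added after values were seen. Names in the text follow a rule (the 12 strongest weaker changes, the 6 highest in Col-0, up to 6 called between the mutants in each direction, list and family members, genes next to a threshold, members near each other, WOX5 and SEU); AT2G33830, ACBP3, BT2, PP2-A13, SNRK2.7, the RTFL and other members outside it were named after their values were seen, as were the list genes that are not members. Gene names, positions, promoters and proteins come from the TAIR10.1 annotation of RefSeq, and near copies from BLAST 2.17.0. Equal replicate numbers were not treated as pairs. Summaries used Python 3.11.15, numpy 2.4.6, pandas 2.3.3 and matplotlib 3.10.9. Alternatives were other pseudocounts, filters, scalings, fits and leaving out each library.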

Additional observations from a re-analysis of the deposited data

How the results depend on the processing

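The count of 57 genes kept within 1.5 times of its value with a pseudocount of 0.1 FPKM (73), median-ratio scaling (47, of which 45 are among the 57), quantile normalization (50, 44 of them shared), the log2 ratio of mean FPKM (61) and without genes listed at 0 in a library (52, an alternative chosen after seeing the data). It moved to 120 with a mean of at least 1 FPKM, 127 with no filter, 33 with a mean of at least 10 FPKM and 37 where every mutant library had to lie below every Col-0 library. Leaving out 1 library gave 38 to 107 genes.

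In seu-3 against wox5-1, the 1 gene called higher became 2 with median-ratio scaling, 5 with quantile normalization, 2 with the replicate block and 6 with sample quality weights, and 1 to 2 with a library left out. The 9 called lower ranged from 6 to 11 over all alternatives. With a library left out 7 to 11 were called lower than wox5-1, 39 to 51 (51 with all libraries) were lower in seu-3 than in Col-0, and 30 to 49 (41 with all) lower in wox5-1. The replicate block gave 9 lower between the mutants, 51 lower in seu-3 and 41 lower in wox5-1. Correlations of the deviations from the genotype mean between same-numbered libraries were 0.0852, -0.325 and 0.292 for seu-3 and wox5-1. They were -0.262, -0.000114 and -0.170 for seu-3 and Col-0, and 0.0279, 0.147 and -0.376 for wox5-1 and Col-0. Libraries with different numbers gave -0.491 to 0.459. With 3 libraries per genotype these values cannot decide whether equal numbers pair the samples. Over the genes named in seu-3 against wox5-1, 382 values kept direction and call, 18 lost the call, 2 gained it and 29 changed sign; the lost calls were those of GSR2 (adjusted p from 0.0524 to 0.942 in 8 alternatives), PP2-A13 (0.0646 to 0.156 in 7) and AT3G27950 (0.0538 to 0.161 in 3). The 29 changes of sign were in 10 genes, and 0 of them involved a value called with or without the alternative. With median-ratio scaling the difference on the log2 scale was 0.10 for AT2G01021, 0.22 for AT3G59930, 0.27 for MIOX2, 0.25 for AT3G25930 and 0.0048 for AT4G11190, and with quantile normalization 0.054 for AT2G01021, 0.30 for AT3G59930, 0.13 for MIOX2 and 0.018 for AT3G25930. With sample quality weights it was 0.32 for AT3G59930, -0.14 for NRT2.6 and 0.0034 for AT3G25930. Leaving out a library gave -1.57 to 1.55 for AT2G01021, -0.15 to 0.39 for MLP329, -0.30 to 0.083 for AT3G59930, -0.56 to 0.49 for IRT1, -0.18 to 0.27 for TCH3, -0.27 to 0.37 for MIOX2, -0.12 to 0.38 for AT1G52200 and -0.21 to 0.038 for AT3G25930. The cause of these moves was not tested. FPKM gave no counts, so that no counting interval could be set, and 3 libraries per genotype limit the precision.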
